A study of Mus musculus with 4 samples.

Results

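A set of 8 regulators of the intermediate mesoderm and the early kidney was followed in whole mouse embryos that lack Nr6a1, a nuclear receptor without a known ligand whose older name is Gcnf. It comprised the transcription factor genes Osr1, Lhx1, Pax8, Gata3 and Wt1, the ligand gene Gdnf, and the genes of its receptor Ret and co-receptor Gfra1. Members were all probe sets that the array annotation assigns to 1 of these 8 symbols and to no other gene, which gave 13 of the 45037 probe sets tested and 8 of 18193 genes. A probe set is a group of short probes designed from one transcript sequence, so that a gene can have several readings. Lhx1, Pax8 and Ret had 2 probe sets each, Gfra1 had 3, and each of the other genes had 1.

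RNA of 2 wildtype embryos (labelled wt) and 2 homozygous mutants (labelled Gcnf-/-, written Nr6a1-/- here) was hybridised to Affymetrix arrays that cover the mouse genome, 1 array per embryo. The labels give the stage as embryonic day 9.0 (E9.0), the study's methods state a window that reaches later, and neither somite number nor litter is known here. From earlier work the study reports that embryos without Nr6a1 develop more slowly once somites have begun to form. Whether the mutants here lagged behind the wildtype embryos was not tested. The mutation is carried by every cell of the mutant, the whole embryo was extracted, and genotypes were read from yolk sac DNA, so no value below belongs to one tissue. Signals are log2 values, on which a difference of 1 is a 2-fold change. The word called marks a probe set whose limma p, adjusted over all 45037 by Benjamini-Hochberg, was 0.05 or lower and whose signal changed at least 2-fold.

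The kidney forms from the intermediate mesoderm, a strip between the somites and the lateral plate. Osr1 marks this strip and the adjoining lateral plate early, and Pax8 acts with its relative Pax2, with Lhx1 and with Gata3 in forming and extending the nephric duct. Later, mesenchyme beside the duct secretes Gdnf, which binds Gfra1 and activates the receptor tyrosine kinase Ret on duct cells, and the ureteric bud grows out. Wt1 is needed in that mesenchyme and later in podocytes.

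Promoter sequence was available for 5 of the 8 genes, in 6 windows of the 250 bases before a transcript start (RefSeq, GRCm38.p6). Those of Pax8, which was called on 1 probe set, and of Gdnf, the only member with a match, are shown with AGGTCA in capitals, the letters that Nr6a1 and related nuclear receptors recognise. The Pax8 window lies at chr2:24475600-24475849 on the minus strand and the Gdnf window at chr15:7809798-7810047 on the plus strand, both written 5′ to 3′ along the gene.
Pax8: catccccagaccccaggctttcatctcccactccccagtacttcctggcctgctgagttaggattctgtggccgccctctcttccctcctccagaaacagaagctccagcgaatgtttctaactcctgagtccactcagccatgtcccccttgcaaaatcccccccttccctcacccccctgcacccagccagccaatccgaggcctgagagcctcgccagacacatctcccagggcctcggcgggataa
Gdnf: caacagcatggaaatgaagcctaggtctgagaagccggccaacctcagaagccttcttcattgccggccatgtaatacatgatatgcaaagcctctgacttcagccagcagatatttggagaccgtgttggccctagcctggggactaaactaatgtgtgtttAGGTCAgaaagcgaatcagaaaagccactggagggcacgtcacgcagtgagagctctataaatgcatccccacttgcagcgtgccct
The Gdnf match begins at position -87, counted from the transcript start. AGGTCA, searched on both strands, was found in 1 of the 6 windows of these genes and in 14% of 32851 mouse windows of the same length. The longer TCAAGGTCA, which holds AGGTCA within it, was found in 0 of the 6 and in 0.387% of all windows. These are letter matches and no measurement of binding.

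The arrays of one genotype resembled each other closely (Pearson r across probe sets 0.9973 in wildtype and 0.9975 in mutants), against 0.9931 to 0.9952 between genotypes. Wildtype replicate 1 was female by its Xist signal and the other 3 embryos male, and 18S ribosomal RNA read 1.06 higher on the log2 scale in mutants, whose part in the results was not tested. In that female array 3 probe sets of Y-linked genes, which it lacks, read 3.42 to 5.83, with a median of 4.25, and a signal in this range was not taken as above background. All 4 arrays lay in it for Pax8 1446561_at and for Gfra1 1421973_at and 1450440_at, both mutants for Ret 1436359_at and Gdnf, and 1 mutant for Wt1. The upper end of the range is the reading of Uty alone. The readings placed in it for Ret, Gdnf, Wt1 and Gfra1 1421973_at, and most for 1450440_at, lie above the median, so their place rests on Uty. Values with each array left out, the female one included, are given beside the calls. The 5 probe sets of Nr6a1 read 0.05 to 0.56 higher in the mutants, with 0 called, and where they lie relative to the deleted part is not known, so they do not check the labels.

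Pax8 and Ret each had 1 probe set called lower in the mutants, and 0 of the 13 were called higher. The 2 of 13 called lower compare with 0.0777% of all probe sets called lower and 0.304% called higher. Without the thresholds the 13 lay mostly below wildtype, 11 below and 2 above, with a median difference of -0.12, against 23827 below and 21209 above and a median of -0.01 over all probe sets. In 5 of the 13 both mutants read below both wildtype embryos, as in 27.3% of all probe sets, and in 2 both read above, as in 23.5%. An unadjusted limma p under 0.05 was reached by 5 of the 13 and by 9046 of all probe sets.

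**Figure D1:**
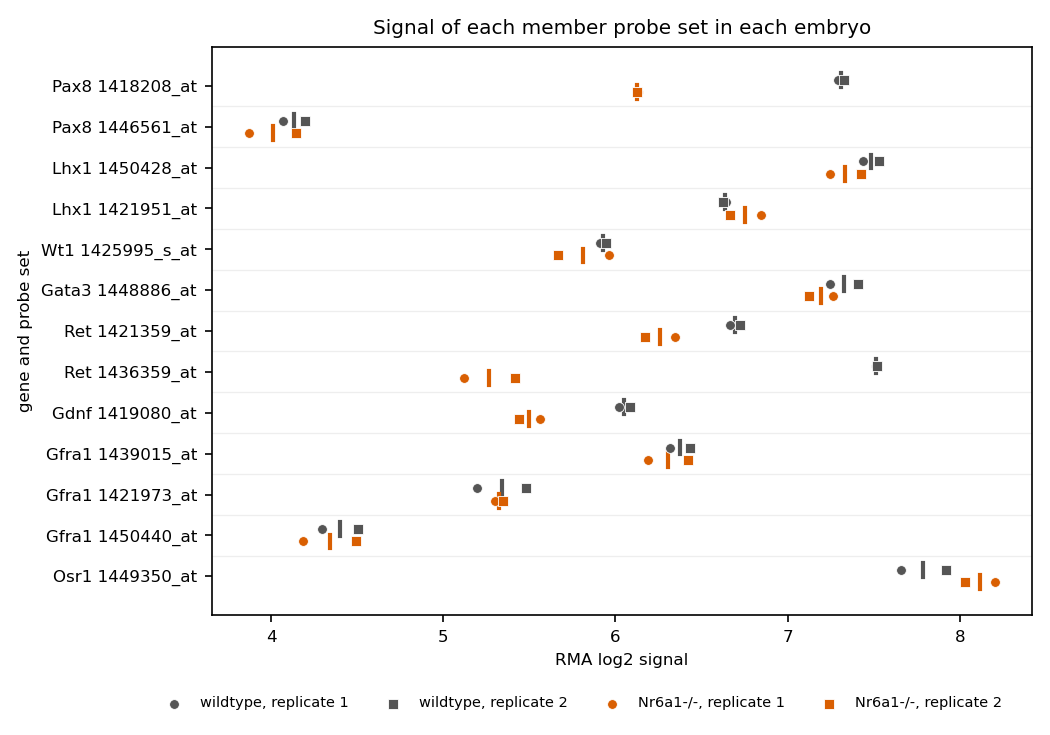
RMA log2 signal (horizontal axis) of each of the 13 probe sets in each embryo, wildtype in grey and Nr6a1-/- in orange, circles for replicate 1, squares for replicate 2, and a bar at each group mean. Mutants stand apart by over 1 unit in Pax8 1418208_at, at 6.13 and 6.12, and in Ret 1436359_at, at 5.12 and 5.42, while most other rows lie close together or overlap.

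**Figure D2:**
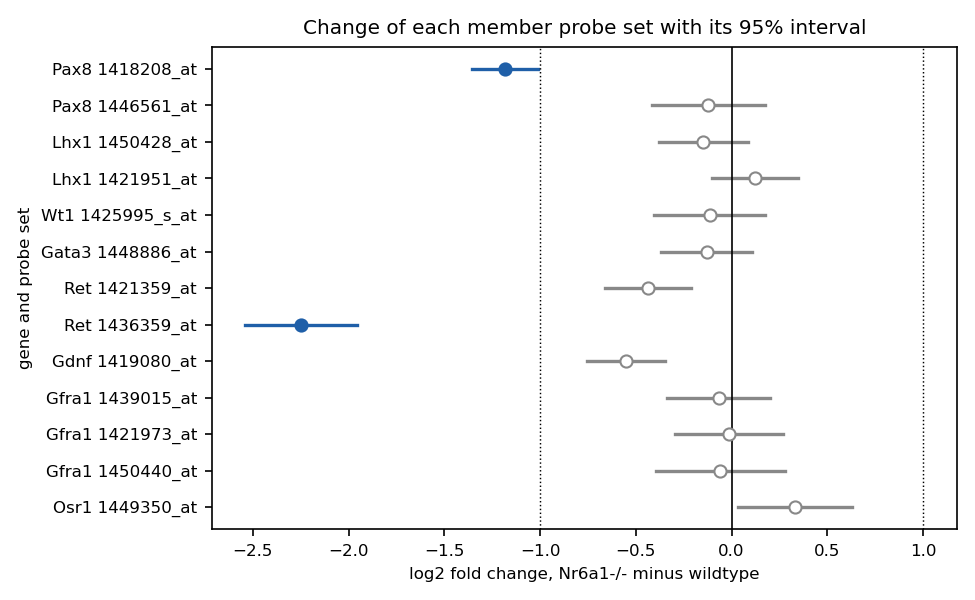
Log2 fold change, Nr6a1-/- minus wildtype, of each probe set with its 95% interval from limma, filled where called, with dotted lines at a 2-fold change. The intervals of Pax8 1418208_at and Ret 1436359_at lie wholly below -1, those of Gdnf and of Ret 1421359_at lie between -1 and 0, and that of Osr1 lies just above 0.

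Osr1, a zinc finger factor and one of the earliest genes of the nephrogenic mesoderm, was the only member gene above wildtype on its brightest probe set. Its single probe set 1449350_at read 7.66 and 7.92 in wildtype and 8.20 and 8.03 in Nr6a1-/- embryos. The groups did not overlap, but the difference of 0.33 ± 0.12 (moderated SE, n = 2 each; 95% interval 0.03 to 0.63) had an adjusted p of 0.214. Osr1 is also transcribed in lateral plate mesoderm, and 9 of 10 measured lateral plate genes lay above wildtype, 0 of them called and 6 at an unadjusted limma p under 0.05. Prrx1, a limb and lateral plate factor, was the exception at -0.33, and it too had an unadjusted p under 0.05 (adjusted p = 0.117). The summed linear signal of the 10 was 7118 and 7516 in wildtype and 8639 and 9075 in mutants, and its part in the Osr1 reading was not tested.

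Lhx1, a LIM homeobox factor required for the nephric duct, gave readings on opposite sides of wildtype. Probe set 1450428_at read 7.44 and 7.53 in wildtype and 7.25 and 7.42 in mutants, with both mutants lower, and 1421951_at read 6.64 and 6.62 against 6.85 and 6.66, with both mutants higher. Neither difference passed, at -0.15 ± 0.09 (95% interval -0.38 to 0.08, adjusted p = 0.438) and 0.12 ± 0.09 (-0.10 to 0.34, adjusted p = 0.511). Both intervals leave out a 2-fold change. Lhx1 is transcribed in spinal interneurons too, for which 5 of 7 measured markers lay below wildtype, with 0 called and 2 at an unadjusted limma p under 0.05. Their summed linear signal was 2508 and 2850 in wildtype and 2526 and 2807 in mutants, and its part was not tested.

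Pax8, the paired-box factor of the duct, was lower on one probe set, and its other probe set was not above background. Probe set 1418208_at, designed from a RefSeq transcript, read 7.29 and 7.33 in wildtype embryos and 6.13 and 6.12 in the mutants. The groups were far apart against a spread of 0.02 and 0.01 (SD), and the signal fell by 1.18 ± 0.07 on the log2 scale (95% interval -1.36 to -1.01), 2.27-fold, with an adjusted p of 0.0133. It ranked 49 of 45037 by size of fall. The second probe set, 1446561_at, designed from an expressed sequence tag, was among the dimmest 9.83% and read 4.07 and 4.20 in wildtype and 3.87 and 4.15 in mutants. These overlap, and the difference was -0.12 ± 0.12 (95% interval -0.42 to 0.17, adjusted p = 0.621). With all 4 arrays in the range of absent genes, this probe set could not have shown a fall.

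Leaving out any 1 of the 4 arrays kept the Pax8 fall at 1418208_at between -1.20 and -1.17 but ended the call, with adjusted p from 0.0917 to 0.162. Pax8 is among the genes that the study took as reduced from these same arrays, so its fall here is not independent evidence of its direction. Fewer cells that express a gene and less RNA per cell cannot be told apart in a whole embryo. Pax8 is also transcribed at the midbrain-hindbrain boundary and in the otic placode. The median over 10 measured genes of those places was -0.05, with 8 below wildtype and 1 called, the boundary factor En2, which fell by 2.00 ± 0.09 (adjusted p = 0.0092). Wnt1, of the same boundary, differed by -0.24, and Sox10, which also marks the otic epithelium, by -0.65, and neither was called. The summed linear signal of the 10 was 2257 and 2238 in wildtype and 1875 and 2061 in mutants, and its part in the Pax8 fall was not tested.

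Gata3, a zinc finger factor of the duct, did not separate the genotypes. Its probe set 1448886_at read 7.25 and 7.41 in wildtype and 7.26 and 7.13 in mutants, which overlap, with a difference of -0.13 ± 0.09 (95% interval -0.37 to 0.11, adjusted p = 0.505). Wt1, the zinc finger factor of kidney mesenchyme and mesothelium, had only 1425995_s_at, whose suffix marks probes shared by several transcripts. It read 5.91 and 5.94 in wildtype and 5.96 and 5.66 in mutants, and the difference was -0.11 ± 0.11 (95% interval -0.41 to 0.18, adjusted p = 0.642). The interval of Gata3 leaves out a 2-fold change, whereas Wt1 read too close to the absent-gene range for its interval to bound the change. Other tissues transcribe these genes. For Gata3 these include trophoblast, on whose list 6 of 8 measured genes lay above wildtype. Among the 6 are Krt8, Krt18 and Hand1, the last also on the lateral plate list, so the count is not particular to trophoblast. For Wt1 they include the epicardium and gonadal ridge, on whose lists 4 of 7 and 4 of 6 lay above. In all 3 lists 0 were called, with 5, 5 and 2 genes at an unadjusted limma p under 0.05 in either direction. The summed linear signal was 20190 and 20639 against 22727 and 23375 for trophoblast, 2026 and 2173 against 3393 and 3060 for the epicardium, and 2736 and 2569 against 2760 and 2972 for the gonadal ridge, wildtype first, and its part was not tested. Of the trophoblast sum, 90.6% to 91.9% came from Krt8 and Krt18, keratins of many simple epithelia. Tpbpa, the marker most specific to trophoblast, read 3.98 and 4.14 in wildtype and 4.01 and 4.32 in mutants, in the range of absent genes, and the trophoblast factors Elf5 and Gata2 differed by -0.40 and -0.33. Tfap2c, a trophoblast factor, differed by 0.99 (adjusted p = 0.0458), and Aldh1a2, a retinoic acid enzyme on the epicardium list, by 0.84 (adjusted p = 0.0487), both short of 2-fold. Aldh1a2 read 9.32 and 9.57 in wildtype and 10.33 and 10.24 in mutants. The study counts it as a marker of mesodermal progenitors, so the epicardium sum is not particular to the epicardium. On the gonadal ridge list Cbx2, Gata6 and Gata4 were the brightest, with mean signals of 10.26, 9.79 and 8.53. Gata4 is also on the lateral plate list, so that sum is not particular to the gonadal ridge. Nr5a1 and Lhx9, with mean signals of 6.13 and 6.20, differed by -0.0048 and 0.03.

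Gdnf, the secreted ligand, lay below wildtype and was not called. Probe set 1419080_at read 6.02 and 6.08 in wildtype and 5.56 and 5.44 in mutants. Both mutants were lower, and the difference was -0.55 ± 0.08 (95% interval -0.75 to -0.35), 1.46-fold, with an adjusted p of 0.0574. The adjusted p was 0.0497 after repeated quantile normalisation, 0.0475 after median centring and 0.0336 with an intensity trend, and the change stayed short of 2-fold in each. Both mutants lay in the range of absent genes, and both wildtype embryos read just above its highest value of 5.83. As for Wt1, the interval therefore does not bound the change.

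Ret, the receptor, had the largest fall of the 13 on one probe set and a smaller difference on the other. Probe set 1436359_at, designed from an expressed sequence tag, read 7.51 and 7.52 in wildtype and 5.12 and 5.42 in mutants. The measured signal fell by 2.25 ± 0.11 (95% interval -2.54 to -1.96), an estimate of 4.75-fold, with an adjusted p of 0.00971. It was the 4th largest fall of 45037 as measured. Both mutants lay in the range of absent genes, so the estimate may understate the fall, and its interval covers only the measured signals. Probe set 1421359_at, designed from a RefSeq transcript, read 6.67 and 6.72 in wildtype and 6.35 and 6.17 in mutants. Both mutants again read lower, but the difference was -0.43 ± 0.09 (95% interval -0.66 to -0.21), 1.35-fold, with an adjusted p of 0.0964. The members were chosen with earlier results of these arrays known, so the Ret fall is not independent evidence of its direction. Leaving out any 1 array kept the fall at 1436359_at between -2.40 and -2.10 and ended its call, with adjusted p from 0.0871 to 0.162.

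Ret is also transcribed in migrating enteric neural crest and cranial ganglia. Of 9 measured genes of those cells, 5 lay below wildtype and 4 above, with a median of -0.02, 0 called and 6 at an unadjusted limma p under 0.05. Sox10, a defining factor of the crest, differed by -0.65 ± 0.08 (adjusted p = 0.0506), Tfap2b, a factor of crest and sympathetic cells, by -0.81, and Isl1, a factor of ganglion neurons, by 0.50. The summed linear signal of the 9 was 4052 and 4239 in wildtype and 4571 and 4283 in mutants. Isl1 and Hand2, the brightest genes on this list, differed by 0.50 and 0.29 and are also on the lateral plate list. The sum is therefore not particular to crest and ganglia, and its part in the Ret fall was not tested.

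Gfra1, the co-receptor that presents Gdnf to Ret, gave 3 readings that overlapped between the genotypes. Probe set 1439015_at read 6.31 and 6.43 in wildtype and 6.19 and 6.42 in mutants, a difference of -0.07 ± 0.11 (95% interval -0.34 to 0.20, adjusted p = 0.787). The others, in the range of absent genes, differed by -0.01 (1421973_at, adjusted p = 0.969) and -0.06 (1450440_at, adjusted p = 0.858).

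Whether the probe sets of one gene differ in their change was tested over all 30372 pairs of probe sets of 9010 genes, of which 0.145% passed. That the probe sets of Ret and of Pax8 disagree was known from these same arrays beforehand. The test therefore gives the size of the disagreement and is no independent evidence of it. The Ret pair passed: the change at 1421359_at was higher than at 1436359_at by 1.81 ± 0.17 (95% interval 1.40 to 2.23, adjusted p = 0.0403), and 24 of all pairs differed at least as much. Without wildtype replicate 1 or without Nr6a1-/- replicate 1 the adjusted p was 0.0861 and 0.051. The Pax8 pair differed by -1.06 ± 0.13, but its dimmer probe set was not above background, so no reading of this difference is made. The Lhx1 pair (-0.27 ± 0.14, adjusted p = 0.458) and the 3 Gfra1 pairs (-0.05, -0.01 and 0.05), each with a probe set in the range of absent genes, did not pass. By mean signal over all 4 arrays, the brighter Ret probe set is the one with the smaller difference and the brighter Pax8 probe set the one with the larger. A rule that keeps the brightest probe set on that mean reports Pax8 at -1.18 and Ret at -0.43. For Ret this order depends on the fall itself, since the means were 6.48 for 1421359_at and 6.39 for 1436359_at. In wildtype 1436359_at was the brighter one, at 7.51 and 7.52 against 6.67 and 6.72. A rule on wildtype signal would report Ret at -2.25. Which part or form of each transcript these probes measure is not known here.

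**Figure D3:**
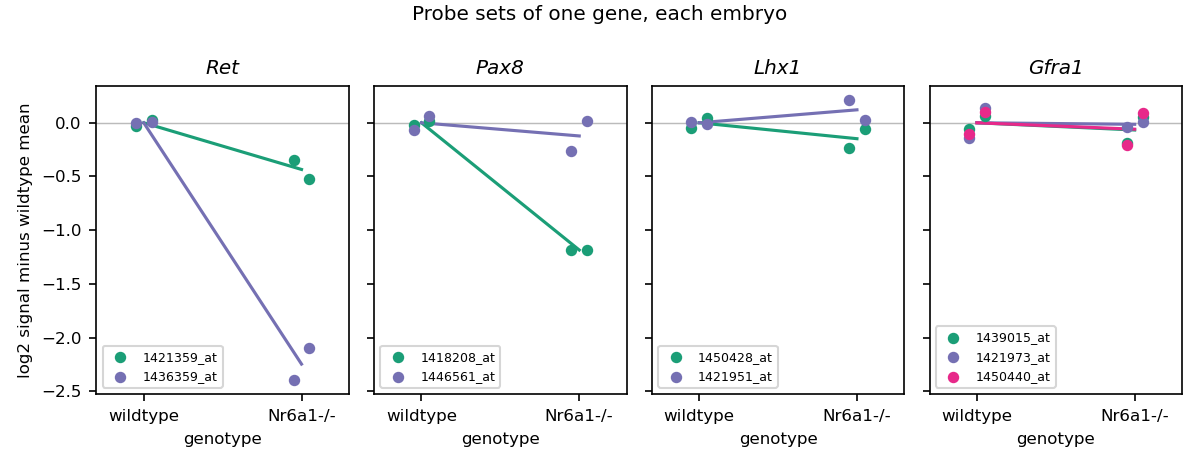
Log2 signal minus the wildtype mean of the same probe set, by genotype, for the 4 genes with several probe sets, 1 point per embryo and lines joining group means. The Ret lines end at -0.43 and -2.25 and the Pax8 lines at -1.18 and -0.12, whereas those of Lhx1 and Gfra1 stay within 0.15 of 0.

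By the Euclidean distance between the deviations of 2 probe sets over the 4 arrays, the named probe sets most like Pax8 1418208_at were those of the trunk and posterior patterning genes Hoxa9 (0.112) and Hoxc8 (0.127) and the growth factor Fgf18 (0.136), which differed by -1.10, -1.25 and -1.08, and 101 lay within 0.5. Ret 1436359_at had only 3 within 0.5, En2 (0.420), Clec2h (0.474) and Tmed6 (0.495). These distances describe 4 arrays, and the genes nearest to a called probe set share its fall by construction.

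Other genes of the kidney pathway were counted on lists, each gene by the probe set brightest on the mean of all arrays. The 7 measured factors of the nephric duct and intermediate mesoderm had a median of -0.62, all 7 below wildtype, but 0 were called at 2-fold, where 0.121% of all genes were called lower and 0.423% higher. Of these, 2 reached an adjusted p of 0.05 without the fold, as 0.374% of all genes did downwards and 1.02% upwards. These were Emx2, a homeobox factor of the urogenital epithelium, at -0.77 ± 0.09 (adjusted p = 0.0444), and Mecom, a zinc finger factor also called Evi1, at -0.70 ± 0.09 (adjusted p = 0.0459). Foxc2, a forkhead factor of the mesoderm, differed by -0.62 (adjusted p = 0.0619). Pax2 was not analysed here.

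An unadjusted limma p under 0.05 was reached by 5 of these 7 genes, by 6 of 14 and 4 of 15 on the next lists, of kidney mesenchyme and bud outgrowth, and by 4336 of all 18193. The lists that act later had genes on both sides of wildtype. In whole embryos of this stage their signals are not assigned to kidney cells. Of 14 measured genes of the metanephric mesenchyme, 8 lay below wildtype and 0 were called, with Eya1, a coactivator of kidney mesenchyme, at -0.93 (adjusted p = 0.0541) and Cited1, a marker of nephron progenitors, at 0.53 (0.0581). Six4, a homeobox factor of the same mesenchyme, differed by -0.52. Of 15 genes of ureteric bud outgrowth, 9 lay below and 0 were called. Etv5, a factor that Ret signalling induces in the bud, and Spry1, a feedback inhibitor of that signalling, differed by -0.65 (adjusted p = 0.0487) and -0.56 (0.0493). The related factor Etv4, on the same list, differed by 0.09 with overlapping groups (adjusted p = 0.861). Bmp4, which restrains budding, differed by 0.67 (0.0582). Whether these differences have to do with Ret signalling was not tested. Of 15 genes of the Gdnf family and Ret signalling, 9 lay below, and 1 was called: Gfra3, the co-receptor of artemin, which read 7.82 and 7.88 in wildtype and 9.07 and 9.35 in mutants and rose by 1.36 ± 0.11 (2.57-fold, adjusted p = 0.0231). The phosphatase Dusp6 differed by -0.48 and the ligand Nrtn by 0.24, neither called.

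**Figure D4:**
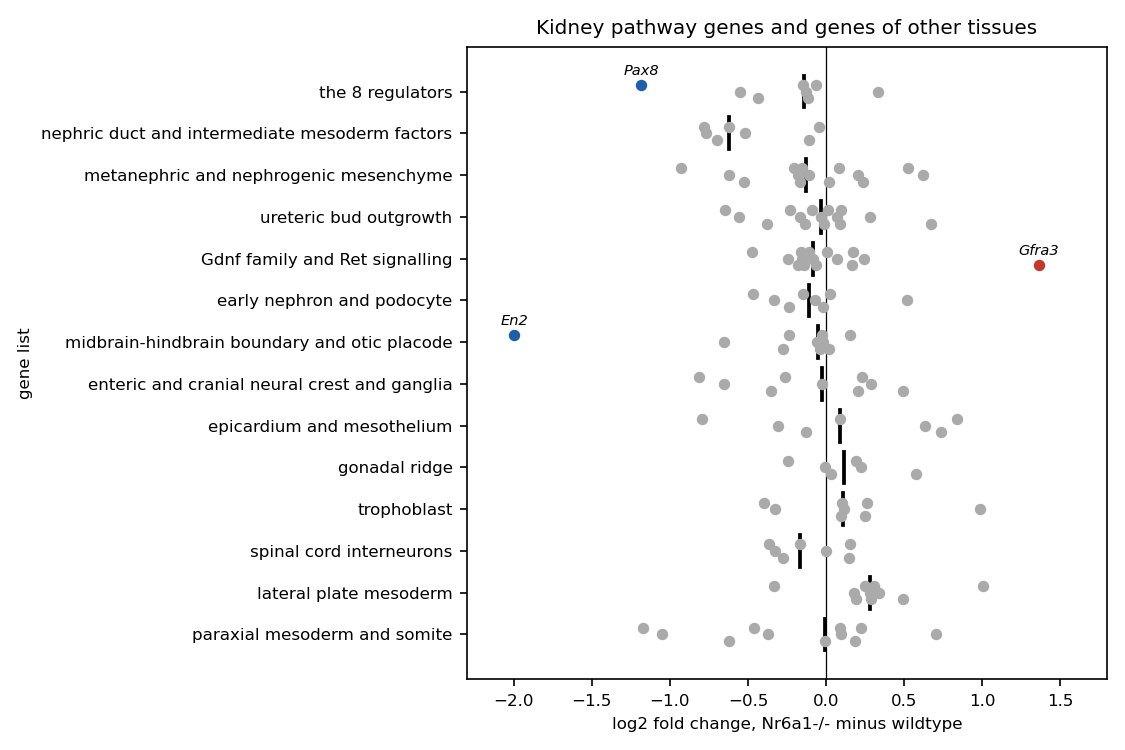
Log2 fold change, Nr6a1-/- minus wildtype, of each gene on its brightest probe set, by list, with a bar at the list median, called genes in blue where lower and red where higher. Ret is shown at -0.43, from the probe set that is brighter on the mean of all arrays but not in wildtype. The nephric duct list stands at a median of -0.62 and lateral plate at 0.28, and among the genes of these lists Pax8, En2 and Gfra3 were called.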

How the data were processed

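RNA from 4 whole embryos was amplified, labelled and hybridised by the authors, 1 array each. The authors deposited log2 signals made with RMA, which subtracts background, equalises array distributions by quantile normalisation and condenses each probe set to 1 value. No RMA version or genome build is stated. Quantile normalisation removes shifts shared by most transcripts, and dim probe sets understate folds.

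Of 45101 probe sets, 64 controls were left out. Annotation gave 34945 of the others 1 symbol, 932 several and 9160 none, and Entrez identifiers matched 99.4% of single-symbol probe sets to RefSeq (GRCm38.p6). Genotypes were compared with limma 3.58.1 (lmFit, eBayes; R 4.3.3), genotype being the only term, with Benjamini-Hochberg adjustment over 45037 probe sets, and with the study's thresholds of an adjusted p of 0.05 or lower and 2-fold. Pairs of probe sets were tested on their differences per array and adjusted over 30372 pairs. Standard errors are moderated and intervals 95%. The smallest two-sided exact permutation p with 2 arrays per genotype is 0.333, so calls rest on limma's pooled spread (prior SD 0.0849, 3.16 prior degrees of freedom), and the number of arrays limits the precision.

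The members and gene lists were chosen with earlier results of these data known. Named are all member probe sets, called list genes and up to 3 genes of a list with the smallest p, and the 3 nearest probe sets of each called member. A few other genes are named where they limit the reading of a list. Alternatives were the replicate block, each array left out, brighter probe sets only, repeated quantile normalisation, median centring, an intensity trend, robust eBayes, no fold threshold, leaving out shared-sequence probe sets, and averaging a gene's probe sets. The procedure was tested on simulated arrays.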

Additional observations from a re-analysis of the deposited data

How the results depend on the processing

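Both member calls held under repeated quantile normalisation, median centring, an intensity trend and robust eBayes, with adjusted p of 0.00358 to 0.0141 for Pax8 1418208_at and 0.00151 to 0.0102 for Ret 1436359_at. Same-numbered arrays share only a number (correlation of their deviations 0.0583). With the replicate block 0 probe sets were called lower and 0 higher over the array (8358 at an unadjusted limma p under 0.05), 0 of the 13 members passed (4 unadjusted, adjusted p 0.156 for both former calls) and 0 member pairs passed. Brighter probe sets alone left 3 of 13 members, so 0 calls and 0 pairs by construction. Repeated quantile normalisation gave 2 member pairs in place of 1 (the added one is that of Pax8, whose dimmer probe set was not above background), an intensity trend 61 probe sets lower over the array in place of 35, and no fold threshold 115 lower and 324 higher in place of 35 and 137. Leaving out each array in turn gave 0 to 2 probe sets lower and 0 to 7 higher over the array, 0 to 0 members lower (4 to 5 unadjusted) and 0 to 1 member pairs.

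Some small differences changed sign when 1 array was left out. Pax8 1446561_at ranged from -0.26 to 0.0153, Wt1 from -0.26 to 0.0333, and the Gfra1 probe sets from -0.18 to 0.0502 (1439015_at), -0.15 to 0.13 (1421973_at) and -0.21 to 0.0919 (1450440_at). The Gfra1 pair differences ranged from -0.15 to 0.0426, -0.0516 to 0.0366 and -0.0844 to 0.18. Averaging a gene's probe sets gave Pax8 -0.65, Ret -1.34, Lhx1 -0.01 and Gfra1 -0.05. Wt1 had no value without shared sequence. The cause of these movements was not tested.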

Other observations

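Early nephron and podocyte genes, which act after the stage sampled, were measured for 8 genes, of which 6 lay below wildtype and 0 were called (3 at an unadjusted limma p under 0.05), with a median of -0.11. Hnf4a, later a factor of the proximal tubule, differed by -0.47, the adhesion gene Cdh6 by -0.33 and the endocytic receptor Lrp2 by 0.52. In whole embryos of this stage these signals are not assigned to kidney cells.

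Paraxial mesoderm, the neighbour of the intermediate mesoderm on the medial side, had 6 of 11 measured genes below wildtype, 0 called (6 at an unadjusted limma p under 0.05) and a median of -0.01. The presomitic factor Tbx6 differed by 0.71 (adjusted p = 0.0535, limma), and Tcf15 and Meox2, factors of the somite, by -0.37 and -1.05.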
